A study of Gallus gallus with 12 samples.

Results

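Transcript levels in blastoderms of freshly laid chicken eggs were compared with those in gonadal stromal cells of older chicken embryos. The comparison used 3 arrays of each group, 6 of the 12 arrays in the study. It covered every probe set designed for a chicken transcript, which were 37693 of the 38535 probe sets on the Affymetrix GeneChip Chicken Genome Array. Probe sets with 1 gene symbol stood for 13008 genes. Each gene was read from its brightest probe set on average over all 12 arrays, one ending in _x_at only where it had no other. The arrays were chosen by their labels and the probe sets by their names. The comparison, gene lists and named genes were chosen with earlier results of these data known. All values below are the deposited log2 signals, on which 1 unit is a 2-fold difference.

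Blastoderm samples held cells of embryonic stage X at day 0, freed from 5 White Leghorn eggs per sample by mild dissociation in buffered saline, with 530000 cells per sample. Gonadal stromal cells came from White Leghorn embryos of day 6.5, with the gonads of 100 embryos of both sexes pooled per sample and 9000000 cells per sample. They are the somatic counterpart of primordial germ cells that the study sorted magnetically from gonads. The sources used here name neither the antibody of that sort nor which of its fractions the gonadal stromal cells are. Primordial germ cells of day 6.5 and cultured fibroblasts of day 6.5 embryos, 3 arrays each, made up the rest of the study. They entered the estimate of the spread, the background level, the choice of probe sets above background and that of each gene's brightest probe set. The labels call the replicates biological and the design text calls them independent samples. Each sample is a pool of embryos and a mixture of cell types, so fewer cells of a type and less RNA per cell cannot be told apart. Age, tissue, dissociation and sorting differ together between the groups and cannot be told apart either.

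The stage X blastoderm is the disc of cells that lies on the yolk when the egg is laid. Its epiblast is an epithelial sheet from which the whole embryo will form, the hypoblast is assembling below it, and the primitive streak has not yet appeared. It still holds transcripts that the mother laid down in the egg, beside those of its own genome. The embryonic gonad grows from the genital ridge beside the mesonephros, the embryonic kidney. Its somatic part holds supporting cells, steroid-producing cells and interstitial mesenchyme, with blood vessels running through it, and it makes sex hormones early in birds.

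The arrays were alike within groups and far apart between them. Correlations between arrays (over probe sets, not over independent replicates) used the 22304 probe sets with a mean above background in any group of the study. They were 0.978 to 0.992 within blastoderm and 0.976 to 0.989 within gonadal stromal cells. Between the groups the correlation was 0.748 to 0.770. Background was set at 3.61, at or below which 99% of the viral and reporter probe sets lay. As a measure of RNA integrity, signal at the 3′ end minus that at the 5′ end of actin and GAPDH control transcripts was 0.55 ± 0.23 in blastoderm and 0.00 ± 0.08 in gonadal stromal cells (SD, n = 3 each, exact two-sided permutation p = 0.1, the smallest that 3 against 3 arrays allow). Hybridization spike-ins, bacterial control transcripts added in fixed amounts before hybridization, read 9.14 ± 0.09 in blastoderm and 8.52 ± 0.10 in gonadal stromal cells (SD, n = 3 each, exact p = 0.1). Poly-A spike-ins, another set of controls, read 4.83 ± 0.80 in blastoderm and 4.83 ± 0.75 in gonadal stromal cells (SD, n = 3 each). Spike-in centring below means centring the arrays on the hybridization spike-ins only. It lowered every blastoderm value by 0.62 relative to gonadal stromal cells, and the median difference over all probe sets became -0.56. Where that scaling turns the direction of a called gene or of a list median given below, the text beside it says so. The part of RNA integrity and of scaling in the differences was not tested.

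The labels were set against marker genes of the cell types. Of 7 measured epiblast markers, 6 were higher in blastoderm and above background there, and the other, SOX2, lay within background in both groups. Their mean level in blastoderm was 8.52 to 8.59, against 4.57 to 5.11 in gonadal stromal cells. Of 7 measured markers of gonadal somatic cells, 6 were lower in blastoderm, where their mean level was 3.69 to 4.11, against 8.43 to 8.54 in gonadal stromal cells. GATA4 was the exception and was not called. Probe sets with the symbols POU5F3, NANOG and WT1 were not found in the annotation, and these genes were not analysed here. Markers of other cell types were above background in the gonadal stromal cell arrays as well. All 5 endothelial markers were, with a mean of 6.11 to 6.40, against 2.74 to 2.85 in blastoderm, and so were all 3 measured erythroid markers, with a mean of 11.32 to 11.36, against 5.38 to 6.0. In blastoderm, 1 of 5 endothelial markers and all 3 erythroid markers exceeded background too. All 5 kidney tubule markers and 4 of 5 leukocyte markers also exceeded background in gonadal stromal cells, against 2 of 5 each in blastoderm. Their means in gonadal stromal cells were 4.59 to 4.99 for kidney tubule, against 3.34 to 3.41 in blastoderm, and 4.88 to 4.94 for leukocytes, against 3.41 to 3.65 in blastoderm. In the longer lists given further below, 10 of 17 leukocyte and 12 of 17 kidney genes had a group mean above background. The median level of the leukocyte list in gonadal stromal cells was 3.61 to 3.82, close to background. All 5 germ cell markers exceeded background in both groups, with a mean of 5.41 to 5.59 in gonadal stromal cells and 5.56 to 5.69 in blastoderm. Of all 13008 genes, however, 9916 had a mean above background in at least 1 of the groups. The median level of all genes in gonadal stromal cells was 5.31 to 5.47. There the endothelial and erythroid means lay above that median, the germ cell mean near it, and the kidney tubule and leukocyte means below it. Exceeding background thus did not set the kidney tubule, leukocyte and germ cell markers apart from genes at large. By the same rule, 5 of 7 gonadal somatic markers exceeded background in blastoderm. In gonadal stromal cells, 5 of 7 epiblast markers and 3 of 4 measured hypoblast and endoderm markers did. Among the erythroid markers in blastoderm, HEMGN (8.54) stood well above HBA1 (4.62) and HBAD (4.04). The rule alone thus did not separate the cell types. The kidney tubule markers LRP2 (3.95) and SLC3A1 (3.99) lay only just above background in gonadal stromal cells, and LRP2 was not called. The part of these cell types in the results below was not tested.

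The largest differences set early embryonic genes apart from blood, gonad and matrix genes. At an adjusted p below 0.05 in limma, 3301 of the 13008 genes (25.4%) were higher in blastoderm and 3231 (24.8%) were lower. Over all probe sets, 7016 (18.6%) were higher and 6971 (18.5%) lower, of which 3608 (9.57%) and 4251 (11.3%) differed at least 2-fold. A measured difference of at least 2-fold was reached by 1857 genes (14.3%) that were higher and 2029 (15.6%) that were lower. With values below background set to the background level, 42 genes were higher by at least 16-fold (0.323%) and 101 lower (0.776%), and 4 and 16 genes passed 64-fold. The 3 arrays of the groups did not overlap for 8227 genes (63.2%), and the median standard error of a log2 difference was 0.20. Where the mean of a group lay at or below background, the fold is given as a lower bound, computed with each array below background set to that level. Of the 20 genes furthest higher, 13 belong to the gene lists below, ASTL, CCNA1, WNT3A, OTX2, SALL4 and EPCAM among them. Of the 20 furthest lower, 4 were globins and 7 belong to the extracellular matrix list.

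**Figure D1:**
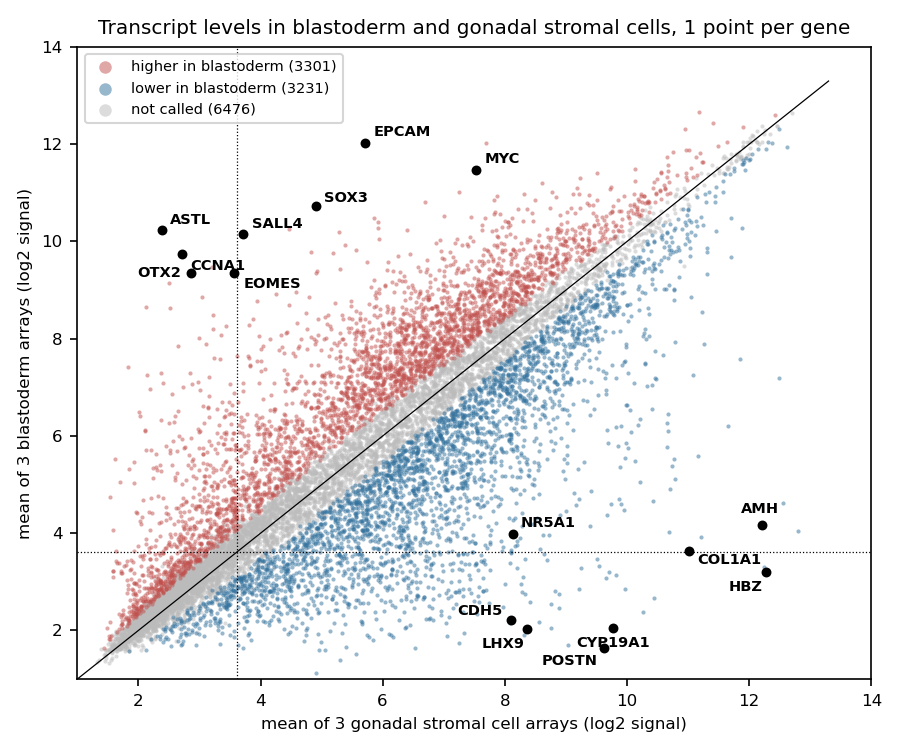
Mean log2 signal of the 3 blastoderm arrays (vertical) against that of the 3 gonadal stromal cell arrays (horizontal), 1 point per gene for 13008 genes. Red points were called higher in blastoderm (3301), blue points lower (3231) and grey points were not called (6476); dotted lines mark background at 3.61 and the solid line equal signal. Early embryonic genes such as ASTL and OTX2 lie at the upper left, and HBZ, AMH and COL1A1 at the lower right.

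Gene lists that cover the biology of both tissues divided by direction. The share of members called is read below against 25.4% higher and 24.8% lower over all genes, whose median log2 difference was 0.07. Between 51.2% and 75.9% of the members were higher in the lists of epiblast, egg, streak, junction, cell cycle and axis signalling genes. Between 81.0% and 82.5% were lower in the matrix, endothelial and erythroid lists.

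**Figure D2:**
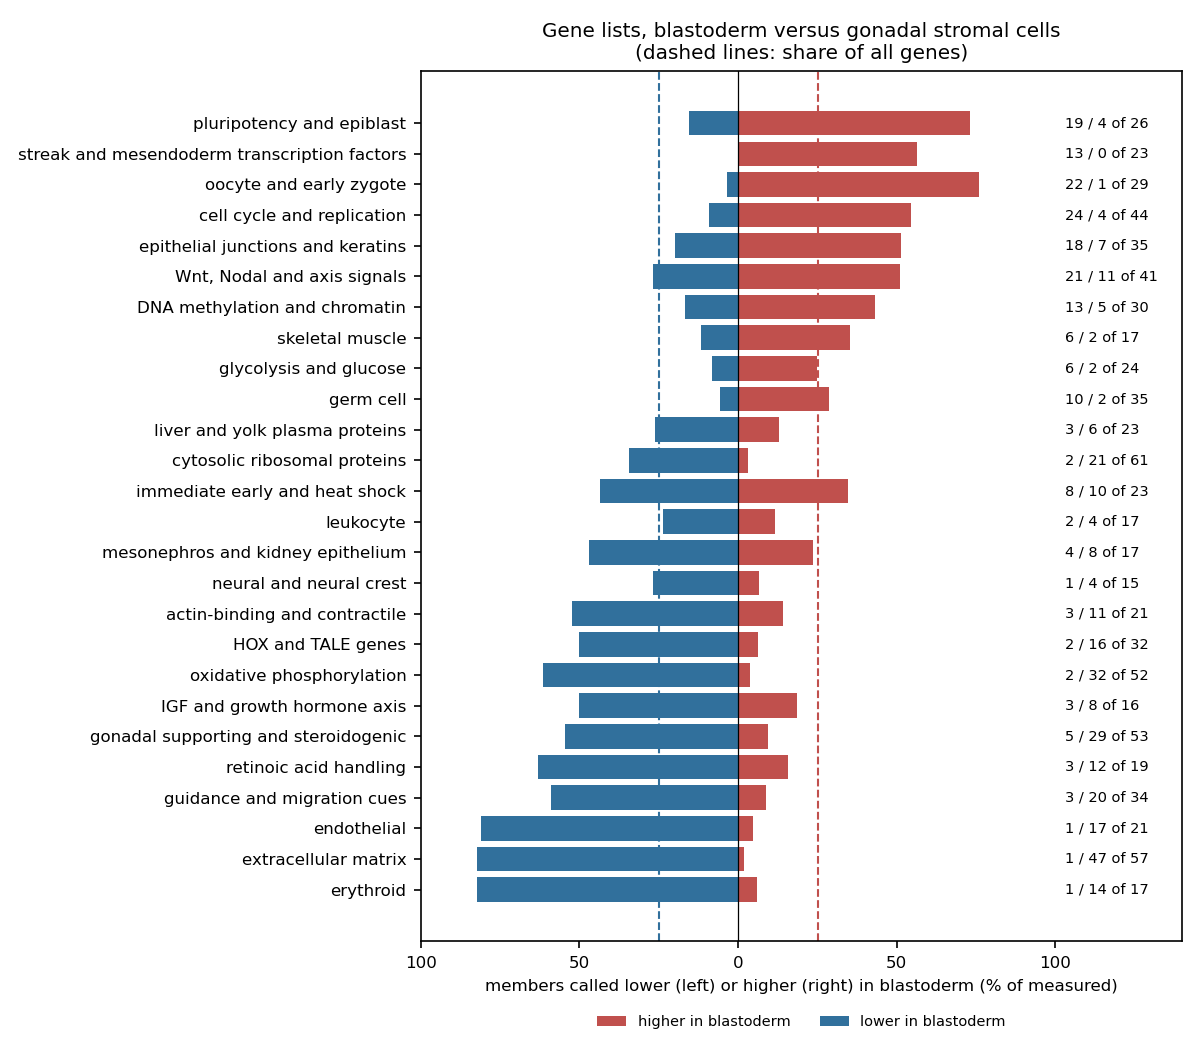
Share of the measured members of each gene list that were called higher in blastoderm (red, right) or lower (blue, left), in percent, with the counts of higher and lower members and of measured members at the right. Dashed lines mark the shares over all 13008 genes, 25.4% and 24.8%. The oocyte list (22 of 29) and the pluripotency list (19 of 26) have the highest shares of members higher, and the matrix, erythroid and endothelial lists have the highest shares lower; with the arrays centred on the spike-ins the medians of the Wnt, chromatin, germ cell, glycolysis and skeletal muscle lists turn negative.

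Transcription factors of the epiblast were mostly higher in blastoderm. Of 26 measured genes in the list of pluripotency and epiblast genes, 19 were higher and 4 lower, with a median log2 difference of 1.39. Among its 18 transcription factors 14 were higher and 1 was lower. SOX3, a SOX factor of the epiblast and early neural plate, read 10.29, 10.87 and 11.03 in blastoderm, against 5.50, 4.88 and 4.33 in gonadal stromal cells. Every blastoderm array stood far above every gonadal stromal cell array, a difference that was 56.8-fold higher (log2 difference 5.83, SE 0.27, adjusted p = 9.28e-11). OTX2, a homeobox factor of the anterior embryo, read 9.19, 9.29 and 9.59 in blastoderm, against 3.20, 2.54 and 2.85 in gonadal stromal cells. All 3 gonadal stromal cell arrays lay below background, and OTX2 was at least 53.8-fold higher (adjusted p = 9.69e-12). SALL4, a zinc finger factor of stem and germ cells, read 9.99, 10.22 and 10.27 in blastoderm, against 3.73, 4.10 and 3.33 in gonadal stromal cells. Its groups were likewise wide apart, and it was 86.7-fold higher (log2 difference 6.44, SE 0.24, adjusted p = 9.75e-12). TFAP2C, a factor of surface ectoderm and of trophoblast in mammals, read 9.07, 9.49 and 9.88 in blastoderm, against 2.85, 3.26 and 3.52 in gonadal stromal cells, again with all arrays of gonadal stromal cells below background, and was at least 58.6-fold higher (adjusted p = 2.44e-11).

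KLF5, a Krüppel-like factor of mammalian pluripotent cells, averaged 8.91 ± 0.21 in blastoderm and 4.25 ± 0.36 in gonadal stromal cells (SD, n = 3 each) and was 25.3-fold higher (log2 difference 4.66, SE 0.27, adjusted p = 1.11e-09). MYC, a driver of growth and proliferation, read 11.11, 11.58 and 11.74 in blastoderm, against 7.82, 7.64 and 7.13 in gonadal stromal cells. It was clearly present in both groups with no overlap of arrays, and was 15.4-fold higher (log2 difference 3.94, SE 0.29, adjusted p = 2.00e-08). Its relative MYCN was 1.69-fold higher (log2 difference 0.75, adjusted p = 0.00855), a call that was lost when arrays were centred on the spike-ins (0.13, adjusted p = 0.520). LIN28A, an RNA-binding protein that blocks maturation of let-7 microRNAs, was 5.31-fold higher (log2 difference 2.41, SE 0.20, adjusted p = 5.49e-08). DNMT3B, the de novo DNA methyltransferase of the early embryo, read 11.12, 10.91 and 10.75 in blastoderm, against 8.38, 7.85 and 7.38 in gonadal stromal cells and was 8.34-fold higher (log2 difference 3.06, SE 0.22, adjusted p = 1.14e-08). SOX2 did not show a measurable level in either group: it read 3.52, 3.45 and 3.39 in blastoderm, against 3.03, 2.67 and 3.28 in gonadal stromal cells, all at or below background. Its adjusted p was 0.0491, the call was lost in 13 of 24 other settings, and with spike-in centring the log2 difference turned to -0.16.

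The 4 members of that list that were lower in blastoderm were 3 receptors and a Krüppel-like factor. LIFR, the receptor for leukaemia inhibitory factor, read 4.72, 5.16 and 4.70 in blastoderm, against 9.45, 9.33 and 9.44 in gonadal stromal cells and was 23.4-fold lower (log2 difference -4.55, SE 0.21, adjusted p = 8.79e-11). FGFR1, a fibroblast growth factor receptor, was 6.30-fold lower (log2 difference -2.66, SE 0.24, adjusted p = 2.05e-07), and KLF2 was 2.43-fold lower (log2 difference -1.28, SE 0.27, adjusted p = 0.00113). IL6ST, which encodes a shared co-receptor of that family, was called (log2 difference -0.70, adjusted p = 0.0341), but both of its group means lay within background, and the call was lost without any of 4 single arrays (adjusted p up to 0.127).

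Genes known from the egg and the first divisions were mostly higher in blastoderm. Of 29 measured members of the oocyte and zygote list, 22 were higher and 1 was lower, with a median of 1.13. A group mean above background was found for 24 of the 29. With spike-in centring 15 were higher and 3 lower, with a median of 0.51. ASTL encodes an astacin-like protease that in mammals is released from the egg after fertilisation and cuts the egg coat. It read 10.03, 10.51 and 10.16 in blastoderm, against 2.02, 2.76 and 2.38 in gonadal stromal cells. The 3 blastoderm arrays lay within 0.48 of each other, far above all gonadal stromal cell arrays, and ASTL was at least 98.6-fold higher (adjusted p = 7.01e-13). CCNA1, the cyclin A of germ cells and early embryos in mouse and frog, read 9.12, 9.997 and 10.12 in blastoderm, against 2.31, 2.95 and 2.90 in gonadal stromal cells. No gonadal stromal cell array exceeded background, and CCNA1 was at least 70.4-fold higher (adjusted p = 2.76e-11). CDC25A, the phosphatase that activates cyclin-dependent kinases, read 9.49, 10.06 and 10.23 in blastoderm, against 5.58, 5.44 and 5.14 in gonadal stromal cells and was 23.3-fold higher (log2 difference 4.54, SE 0.20, adjusted p = 8.33e-11).

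Regulators of stored egg mRNA were higher too. ZAR1L, a relative of the zygote arrest factor of mammals, read 6.81, 7.65 and 7.61 in blastoderm, against 4.32, 4.54 and 4.28 in gonadal stromal cells and was 7.87-fold higher (log2 difference 2.98, SE 0.27, adjusted p = 2.24e-07). BTG4, which in mouse eggs recruits the machinery that clears maternal mRNA, was at least 3.46-fold higher (adjusted p = 2.36e-08). KPNA7, an importin of mammalian oocytes, read 6.15, 6.47 and 6.37 in blastoderm, against 2.30, 2.60 and 2.22 in gonadal stromal cells and was at least 6.60-fold higher (adjusted p = 8.25e-11). MOS, the kinase that holds eggs in meiotic arrest, was higher in the fit, but its blastoderm mean of 3.31 lay within background, and no fold is given. Egg coat genes were not uniform: ZP1 and ZP3 were not called (log2 difference -0.04 and 0.15, the second negative with spike-in centring). CPEB2, a regulator of cytoplasmic polyadenylation, was the member lower in blastoderm and was at least 2.16-fold lower (adjusted p = 3.88e-05).

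Signals that lay out the body axis were higher chiefly among ligands. Of 41 measured genes of the Wnt, Nodal and axis list, 21 were higher and 11 lower, with a median of 0.48 that turned to -0.15 when arrays were centred on the spike-ins. Ligands accounted for 10 of the higher calls and 1 of the lower ones, among 15 measured. WNT3A, a ligand of the canonical Wnt pathway, read 8.66, 8.77 and 8.51 in blastoderm, against 2.20, 2.01 and 2.15 in gonadal stromal cells. It lay below background in all gonadal stromal cell arrays and was at least 32.9-fold higher (adjusted p = 7.62e-13). WNT8A, another canonical ligand of the early embryo, read 6.18, 6.55 and 6.76 in blastoderm, against 2.02, 2.01 and 2.0 in gonadal stromal cells and was at least 7.40-fold higher (adjusted p = 4.24e-11). WNT5B, a ligand of the non-canonical branch, read 8.87, 8.97 and 8.72 in blastoderm, against 4.97, 4.42 and 5.02 in gonadal stromal cells and was 16.5-fold higher (log2 difference 4.05, SE 0.23, adjusted p = 1.08e-09). FGF8, a fibroblast growth factor of streak and organiser, read 6.80, 7.38 and 7.56 in blastoderm, against 2.40, 2.14 and 1.90 in gonadal stromal cells and was at least 12.4-fold higher (adjusted p = 2.92e-11). WNT5A was the only ligand of the list lower in blastoderm (1.68-fold lower, log2 difference -0.75, SE 0.28, adjusted p = 0.0496), a call lost in 11 of 24 other settings. Of its 4 probe sets, 1 was called.

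Secreted inhibitors and receptors went both ways. NOG, which binds and blocks bone morphogenetic proteins, was 4.81-fold higher (log2 difference 2.27, SE 0.22, adjusted p = 3.78e-07). The Wnt inhibitors FRZB (8.14-fold lower, log2 difference -3.03, SE 0.17, adjusted p = 8.42e-10), DKK3 (4.51-fold lower, log2 difference -2.17, SE 0.17, adjusted p = 4.01e-08) and SFRP1 (4.35-fold lower, log2 difference -2.12, SE 0.26, adjusted p = 6.01e-06) were lower. SMAD3, which carries Nodal and TGF-beta signals into the nucleus, read 4.64, 4.74 and 4.43 in blastoderm, against 7.96, 7.83 and 7.96 in gonadal stromal cells and was 9.94-fold lower (log2 difference -3.31, SE 0.20, adjusted p = 1.80e-09). AXIN2, a feedback target of Wnt signalling, was 4.46-fold higher (log2 difference 2.16, SE 0.18, adjusted p = 5.82e-08), whereas LEF1, a nuclear partner of beta-catenin, was 2.66-fold lower (log2 difference -1.41, SE 0.24, adjusted p = 1.86e-04). NODAL itself was not called (log2 difference 0.19, SE 0.19, adjusted p = 0.470), and its difference was negative with spike-in centring. CXCR4, the chemokine receptor used by migrating mesoderm and germ cells, was among the genes furthest higher: it read 7.95, 9.26 and 9.36 in blastoderm, against 3.38, 3.10 and 2.64 in gonadal stromal cells and was at least 37.9-fold higher (adjusted p = 5.28e-08). Its ligand CXCL12 was 1.90-fold lower (log2 difference -0.92, SE 0.20, adjusted p = 0.00124).

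Transcription factors of the streak and of endoderm were higher or not called, and none was lower. Of 23 measured members of that list, 13 were higher, with a median of 1.31; with spike-in centring 11 were higher and 6 lower, and the median stayed positive at 0.69. EOMES, a T-box factor of mesendoderm, read 8.76, 9.43 and 9.86 in blastoderm, against 3.48, 3.81 and 3.38 in gonadal stromal cells and was at least 51.1-fold higher (adjusted p = 6.19e-11). Goosecoid (gene symbol GSC), a homeobox factor of the organiser, read 7.51, 8.09 and 7.98 in blastoderm, against 2.34, 2.68 and 2.95 in gonadal stromal cells and was at least 19.02-fold higher (adjusted p = 2.53e-10). FOXA2, a forkhead factor of endoderm and axial mesoderm, read 6.94, 7.61 and 7.71 in blastoderm, against 1.85, 1.89 and 1.74 in gonadal stromal cells, and was at least 14.1-fold higher (adjusted p = 1.46e-11). The lowest blastoderm array exceeded the highest gonadal stromal cell array by 4.95 for EOMES, 4.56 for goosecoid and 5.05 for FOXA2.

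Hypoblast and endoderm factors followed. SOX17 read 10.31, 10.64 and 10.51 in blastoderm, against 5.76, 5.67 and 6.17 in gonadal stromal cells. It was plainly above background in both groups and 24.7-fold higher (log2 difference 4.62, SE 0.25, adjusted p = 6.27e-10). GATA5 read 8.58, 9.56 and 9.70 in blastoderm, against 7.01, 6.56 and 5.49 in gonadal stromal cells and was 7.63-fold higher (log2 difference 2.93, SE 0.42, adjusted p = 2.63e-05), while its relatives GATA6 (log2 difference 0.86, SE 0.35, adjusted p = 0.0653) and GATA4 (log2 difference -0.57, SE 0.49, adjusted p = 0.407) were not called. With only the 6 arrays of these groups in the fit, GATA6 was called higher (adjusted p = 0.00322). HHEX, a homeobox factor of anterior endoderm, was 2.85-fold higher (log2 difference 1.51, SE 0.19, adjusted p = 8.06e-06). TBXT, the brachyury gene of the streak, read 5.50, 4.77 and 3.81 in blastoderm, against 2.98, 3.58 and 3.60 in gonadal stromal cells and was at least 2.12-fold higher (adjusted p = 0.00364), a call lost with spike-in centring (adjusted p = 0.0690). The mesoderm factors MESP1 and SNAI2 were not called, with log2 differences of 0.07 and 0.01 that were negative with spike-in centring. CDX2, a homeobox factor of posterior tissue, was not called by its brightest probe set (log2 difference -0.01), but the other 2 of its 3 probe sets were called higher, and the mean over all 3 gave a log2 difference of 2.76 (adjusted p = 7.91e-09).

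Genes of epithelial junctions were higher more often than lower, except in the desmosome. Of 35 measured junction and keratin genes, 18 were higher and 7 lower, with a median of 0.63; with spike-in centring 11 were higher and 10 lower, with a median of 0.01. EPCAM, the epithelial cell adhesion molecule, read 12.15, 11.98 and 11.97 in blastoderm, against 6.27, 6.0 and 4.86 in gonadal stromal cells and was 80.2-fold higher (log2 difference 6.32, SE 0.28, adjusted p = 6.51e-11), with all 3 of its probe sets called higher. CLDN1, a claudin that seals tight junctions, read 11.97, 12.03 and 12.06 in blastoderm, against 7.82, 7.79 and 7.48 in gonadal stromal cells and was 19.98-fold higher (log2 difference 4.32, SE 0.15, adjusted p = 5.49e-12). The 3 blastoderm arrays lay within 0.098 of each other. CDH1, epithelial cadherin, was 2.89-fold higher (log2 difference 1.53, SE 0.19, adjusted p = 7.72e-06). ESRP2, which directs epithelial splicing, was 23.8-fold higher (log2 difference 4.57, SE 0.27, adjusted p = 1.45e-09), and GRHL1, a grainyhead-like factor, was at least 15.7-fold higher (adjusted p = 2.23e-08). Among 7 desmosome and keratin genes 4 were lower and 1 higher. The desmosomal proteins PKP2 (6.25-fold lower, log2 difference -2.64, SE 0.47, adjusted p = 2.30e-04) and JUP (3.47-fold lower, log2 difference -1.80, SE 0.18, adjusted p = 6.61e-07) belonged to the lower ones, and CLDN5, the claudin of endothelium, was at least 10-fold lower (adjusted p = 5.86e-06).

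**Figure D3:**
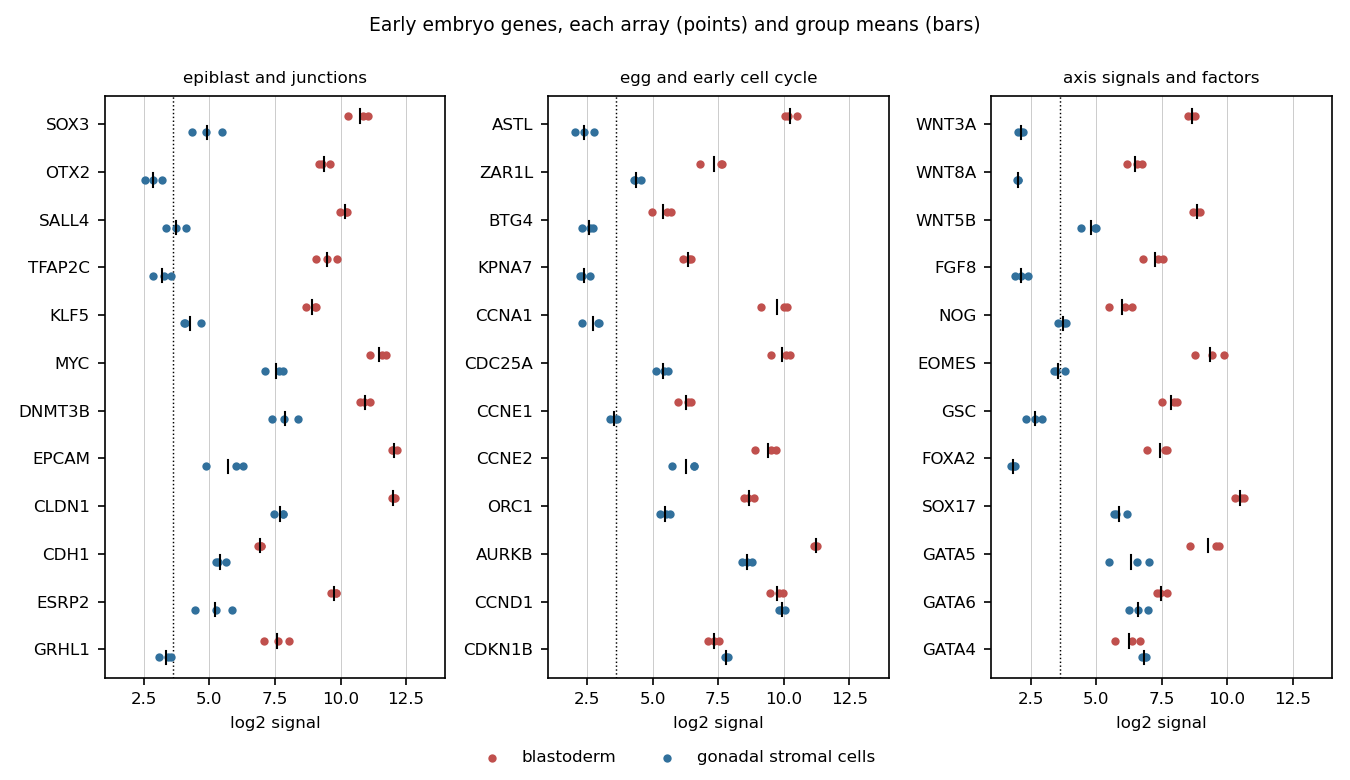
Log2 signal of each blastoderm array (red) and each gonadal stromal cell array (blue) for genes of the epiblast and junctions, of the egg and early cell cycle, and of axis signals and factors; black bars are group means, and the dotted line is background at 3.61. All 3 blastoderm arrays lie above all 3 gonadal stromal cell arrays for most genes shown, and CCND1, CDKN1B and GATA4 are the ones with a lower blastoderm mean. GSC in the right panel is goosecoid.

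Cell cycle genes were more often higher than lower, the E-type cyclins among them. Of 44 measured members 24 were higher and 4 lower, with a median of 0.68; spike-in centring left 13 higher and 11 lower, with a median of 0.06. CCNE2, a cyclin E that opens S phase, read 8.91, 9.52 and 9.71 in blastoderm, against 6.56, 6.56 and 5.73 in gonadal stromal cells and was 8.55-fold higher (log2 difference 3.10, SE 0.28, adjusted p = 2.08e-07). CCNE1 was at least 6.19-fold higher (adjusted p = 1.22e-08). ORC1, which marks replication origins, was 9.09-fold higher (log2 difference 3.18, SE 0.20, adjusted p = 3.46e-09), and AURKB, a kinase of chromosome segregation, was 6.08-fold higher (log2 difference 2.60, SE 0.13, adjusted p = 2.60e-10). The D-type cyclins were not called: the log2 difference was -0.17 for CCND1, -0.22 for CCND2 and -0.24 for CCND3. RB1, the retinoblastoma protein that holds cells in G1, was 2.69-fold lower (log2 difference -1.43, SE 0.23, adjusted p = 9.52e-05). TOP2A, which untangles replicated DNA, was 1.56-fold lower (log2 difference -0.64, SE 0.17, adjusted p = 0.00797). TYMS and CDKN1B were lower by less (-0.56 and -0.47), and these calls were lost without single arrays, with an adjusted p up to 0.0871 for TYMS and up to 0.159 for CDKN1B. Both were also lost with median centring (adjusted p = 0.0536 for TYMS and 0.0816 for CDKN1B), and CDKN1B with the mean over probe sets (adjusted p = 0.128).

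Chromatin genes were higher in 13 and lower in 5 of 30 measured members, and their median of 0.33 turned to -0.30 with spike-in centring, where 8 were higher and 14 lower. BMI1, of Polycomb repressive complex 1, was 9.22-fold higher (log2 difference 3.20, SE 0.28, adjusted p = 1.50e-07). EZH2, the methyltransferase of the other Polycomb complex, was 2.95-fold higher (log2 difference 1.56, SE 0.21, adjusted p = 1.29e-05). BPTF and CHD1, which remodel or read nucleosomes, were 4.51-fold higher (log2 difference 2.17, SE 0.37, adjusted p = 1.45e-04) and 3.84-fold higher (log2 difference 1.94, SE 0.29, adjusted p = 3.66e-05). On the other side, SMARCA2, an ATPase of the SWI/SNF remodeller, read 3.09, 3.36 and 3.26 in blastoderm, against 7.82, 7.66 and 7.78 in gonadal stromal cells. Every blastoderm array lay below background, and SMARCA2 was at least 17.7-fold lower (adjusted p = 2.92e-11). Its counterpart SMARCA4 was not called (log2 difference -0.29, SE 0.20, adjusted p = 0.283). TET2, which oxidises methylated cytosine, was 2.53-fold lower (log2 difference -1.34, SE 0.22, adjusted p = 1.01e-04), while DNMT1 was not called (log2 difference -0.33, SE 0.25, adjusted p = 0.347).

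Most germ cell genes were not called. Of 35 measured members 10 were higher and 2 lower, against 25.4% and 24.8% over all genes, and 16 had no group mean above background; the median of 0.03 turned to -0.60 with spike-in centring, where 3 were higher and 19 lower. DDX4, the chicken vasa homologue, read 6.65, 6.23 and 5.93 in blastoderm, against 5.29, 5.12 and 5.16 in gonadal stromal cells and was 2.11-fold higher (log2 difference 1.08, SE 0.28, adjusted p = 0.00615); with spike-in centring the log2 difference was 0.46 and not called (adjusted p = 0.126). DAZL, an RNA-binding protein of germ cells, read 5.98, 6.17 and 6.32 in blastoderm, against 6.88, 6.49 and 6.53 in gonadal stromal cells. The groups were close but did not overlap, with a gap of 0.17, and DAZL was not called (log2 difference -0.48, SE 0.28, adjusted p = 0.199). With only the 6 arrays of these groups in the fit, 10 members of the germ cell list were higher and 5 lower. For comparison, the primordial germ cell arrays of the study averaged 10.06 ± 0.66 for DDX4 and 10.81 ± 0.58 for DAZL (SD, n = 3), and the fibroblast arrays 2.32 ± 0.27 and 2.49 ± 0.45. PIWIL1, a PIWI protein that binds piRNAs, was 2.36-fold lower (log2 difference -1.24, SE 0.26, adjusted p = 0.00111). TDRD1, a Tudor protein of germ granules, was 3.57-fold higher (log2 difference 1.84, SE 0.41, adjusted p = 0.00190), and DDX6, an RNA helicase of P-bodies, was 4.09-fold higher (log2 difference 2.03, SE 0.23, adjusted p = 2.07e-06). KIT, the receptor of stem cell factor, was 1.94-fold higher (log2 difference 0.96, SE 0.30, adjusted p = 0.0189), a call lost in 6 settings with an adjusted p up to 0.333. Among 12 meiosis genes only MSH4 exceeded background, and it was not called (log2 difference 0.01, SE 0.24, adjusted p = 0.980); spike-in centring gave -0.61, and the mean over its probe sets gave -0.71, called lower.

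Many regulators of gonad formation were lower in blastoderm, LHX9 and NR2F2 at background there. Of 53 measured genes of the gonadal list 29 were lower and 5 higher, with a median of -0.99. LHX9, a LIM homeobox factor needed for gonad formation in mouse, read 2.10, 1.95 and 2.05 in blastoderm, against 8.63, 8.25 and 8.23 in gonadal stromal cells. All 5 of its probe sets were called lower, and it was at least 27.1-fold lower (adjusted p = 2.46e-09). NR5A1, known as steroidogenic factor 1, read 3.99, 4.41 and 3.57 in blastoderm, against 8.22, 8.19 and 7.97 in gonadal stromal cells and was 17.6-fold lower (log2 difference -4.14, SE 0.34, adjusted p = 6.06e-08). NR2F2, an orphan nuclear receptor of interstitial cells, read 3.36, 3.09 and 3.55 in blastoderm, against 9.63, 9.51 and 9.48 in gonadal stromal cells and was at least 61.03-fold lower (adjusted p = 6.99e-10). DMRT1, the Z-linked factor required for testis development in chicken, read 4.62, 5.09 and 5.01 in blastoderm, against 10.75, 10.66 and 10.71 in gonadal stromal cells and was 55.7-fold lower (log2 difference -5.80, SE 0.18, adjusted p = 1.33e-12). The primordial germ cell arrays averaged 10.67 ± 0.09 for DMRT1. EMX2 (at least 15.1-fold lower, adjusted p = 1.49e-07) and TCF21 (at least 11.4-fold lower, adjusted p = 5.10e-07), factors of the genital ridge and its mesenchyme in mouse, were lower as well. Of the 2 EMX2 probe sets, 1 was called.

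Among hormones and growth factors of the gonad 4 of 11 were lower and 2 higher, and among receptors 6 of 10 were lower and 1 higher. AMH, anti-Müllerian hormone, read 3.72, 4.23 and 4.55 in blastoderm, against 12.13, 12.08 and 12.40 in gonadal stromal cells. The arrays of the groups were separated by more than 7 log2 units in this probe set, and it was 262-fold lower (log2 difference -8.04, SE 0.28, adjusted p = 5.96e-12), but it was the only one of 4 AMH probe sets that was called. INHBB, an inhibin and activin subunit, was 8.54-fold lower (log2 difference -3.09, SE 0.30, adjusted p = 3.77e-07). KITLG, the ligand of KIT, read 2.44, 2.49 and 2.52 in blastoderm, against 5.23, 5.41 and 5.64 in gonadal stromal cells and was at least 3.52-fold lower (adjusted p = 3.74e-08). LHCGR, the receptor of luteinising hormone, read 3.35, 3.75 and 4.05 in blastoderm, against 8.10, 8.14 and 7.67 in gonadal stromal cells and was 19.1-fold lower (log2 difference -4.26, SE 0.28, adjusted p = 4.38e-09). FSHR, the receptor of follicle-stimulating hormone, was 3.76-fold lower (log2 difference -1.91, SE 0.33, adjusted p = 1.76e-04), and ESR1, oestrogen receptor alpha, was at least 4.33-fold lower (adjusted p = 1.14e-07). The receptor PDGFRB of pericytes and mesenchyme was at least 12.1-fold lower (adjusted p = 6.50e-09), with 1 of its 2 probe sets called.

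Among genes of steroid synthesis 10 of 13 measured were lower in blastoderm. CYP19A1, the aromatase that makes oestrogen and is active in female chicken gonads, read 2.10, 2.06 and 2.0 in blastoderm, against 9.05, 9.65 and 10.63 in gonadal stromal cells in pools of both sexes. Both of its probe sets were called, and it was at least 71.9-fold lower (adjusted p = 2.36e-10). CYP17A1, which makes androgen precursors, read 4.42, 4.83 and 4.71 in blastoderm, against 10.10, 10.24 and 10.93 in gonadal stromal cells and was 54.6-fold lower (log2 difference -5.77, SE 0.46, adjusted p = 4.64e-08). HSD3B1 was at least 33.5-fold lower (adjusted p = 4.38e-08). CYP11A1, which makes pregnenolone from cholesterol, was at least 22.3-fold lower (adjusted p = 2.48e-07), and STAR, which carries cholesterol into mitochondria, was 5.44-fold lower (log2 difference -2.44, SE 0.34, adjusted p = 2.22e-05). FDX1, the ferredoxin that feeds electrons to mitochondrial steroid enzymes and iron-sulphur cluster assembly, was 1.93-fold higher (log2 difference 0.95, SE 0.15, adjusted p = 9.38e-05); its call was lost with spike-in centring (0.33, adjusted p = 0.124).

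The 5 members of the gonadal list that were higher in blastoderm also act outside the gonad. CITED2, a transcriptional co-activator, read 6.13, 7.56 and 7.58 in blastoderm, against 4.08, 3.80 and 3.27 in gonadal stromal cells. The groups did not overlap, and CITED2 was 10.4-fold higher (log2 difference 3.37, SE 0.33, adjusted p = 3.82e-07). RSPO3, a secreted amplifier of Wnt signalling, read 9.84, 8.46 and 7.90 in blastoderm, against 5.73, 5.44 and 4.49 in gonadal stromal cells and was 11.4-fold higher (log2 difference 3.51, SE 0.43, adjusted p = 5.66e-06). PTCH1, the hedgehog receptor, was 2.23-fold higher and WNT4 1.88-fold higher, with calls lost under spike-in centring (adjusted p = 0.0598 and 0.355). FDX1 was the fifth. The ovarian factor FOXL2 (log2 difference 0.28, SE 0.30, adjusted p = 0.523) and NR0B1 (log2 difference 0.63, SE 0.28, adjusted p = 0.0909) were above background in both groups and not called, and the difference of FOXL2 was negative with spike-in centring.

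Retinoic acid genes were lower in 12 and higher in 3 of 19 measured members, with a median of -1.01. ALDH1A2, the main enzyme that makes retinoic acid in embryos, read 5.83, 5.53 and 4.81 in blastoderm, against 10.73, 10.76 and 10.73 in gonadal stromal cells and was 40.7-fold lower (log2 difference -5.35, SE 0.27, adjusted p = 3.28e-10). CYP26A1, which breaks retinoic acid down, read 3.63, 3.98 and 3.94 in blastoderm, against 8.60, 8.33 and 6.86 in gonadal stromal cells and was 16.9-fold lower (log2 difference -4.08, SE 0.34, adjusted p = 6.63e-08). The gonadal stromal cell arrays spread over 1.74 here but stayed above every blastoderm array. CYP26B1, another such enzyme, was 1.64-fold higher, a call lost in 5 settings. STRA6, the cellular importer of retinol, was 9.04-fold lower (log2 difference -3.18, SE 0.38, adjusted p = 4.26e-06). The receptors split: RARB, itself a target of retinoic acid, was 12-fold lower (log2 difference -3.59, SE 0.27, adjusted p = 2.85e-08), and RARA was at least 1.85-fold higher (adjusted p = 4.90e-04).

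Extracellular matrix genes were lower almost throughout. Of 57 measured genes 47 were lower in blastoderm and 1 was higher, with a median of -2.34. COL1A1, a chain of fibrillar collagen I, read 3.63, 3.60 and 3.65 in blastoderm, against 11.03, 10.85 and 11.14 in gonadal stromal cells. The blastoderm arrays lay near background, and COL1A1 was 167-fold lower (log2 difference -7.38, SE 0.28, adjusted p = 1.56e-11). COL1A2, the partner chain, read 2.64, 2.61 and 2.76 in blastoderm, against 10.44, 10.40 and 10.49 in gonadal stromal cells and was at least 114-fold lower (adjusted p = 6.66e-12). COL3A1, of fibrillar collagen III, was 158-fold lower (log2 difference -7.30, SE 0.18, adjusted p = 7.49e-14) with all 6 probe sets called lower. Among 17 collagens 15 were lower and none higher. The basement membrane chain COL4A2 was 13.8-fold lower (log2 difference -3.79, SE 0.17, adjusted p = 8.33e-11), with 4 of its 6 probe sets called.

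Matrix glycoproteins and proteases were lower too. POSTN, periostin of fibroblast matrix, read 1.76, 1.39 and 1.74 in blastoderm, against 9.38, 9.30 and 10.19 in gonadal stromal cells and was at least 64.7-fold lower (adjusted p = 6.88e-12). DCN, the proteoglycan decorin, read 3.02, 1.74 and 2.41 in blastoderm, against 9.98, 10.14 and 10.68 in gonadal stromal cells and was at least 101-fold lower (adjusted p = 3.70e-10). SPARC, a collagen-binding glycoprotein, read 6.0, 6.20 and 6.40 in blastoderm, against 11.48, 11.68 and 11.79 in gonadal stromal cells and was 43.7-fold lower (log2 difference -5.45, SE 0.33, adjusted p = 2.05e-09). MMP2, a gelatinase, was at least 42.8-fold lower (adjusted p = 1.17e-11). Fibronectin was well above background in both groups, and FN1 was 6.58-fold lower (log2 difference -2.72, SE 0.21, adjusted p = 2.69e-08), with 4 of its 8 probe sets called. The laminin chains LAMB1 (1.69-fold lower, log2 difference -0.76, SE 0.15, adjusted p = 6.80e-04) and LAMC1 (1.93-fold lower, log2 difference -0.95, SE 0.14, adjusted p = 4.65e-05) differed by less, and LAMA1 was not called (log2 difference -0.23, SE 0.27, adjusted p = 0.550), with probe sets called in opposite directions. FBLN2, fibulin 2 of basement membranes, was the member higher in blastoderm: it read 7.58, 7.62 and 7.60 in blastoderm, against 5.68, 5.50 and 5.06 in gonadal stromal cells and was 4.54-fold higher (log2 difference 2.18, SE 0.28, adjusted p = 7.71e-06). In cultured fibroblasts, the matrix-rich group of the study, COL1A1 averaged 12.64 ± 0.18, POSTN 11.21 ± 0.12 and DCN 11.01 ± 0.25.

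**Figure D4:**
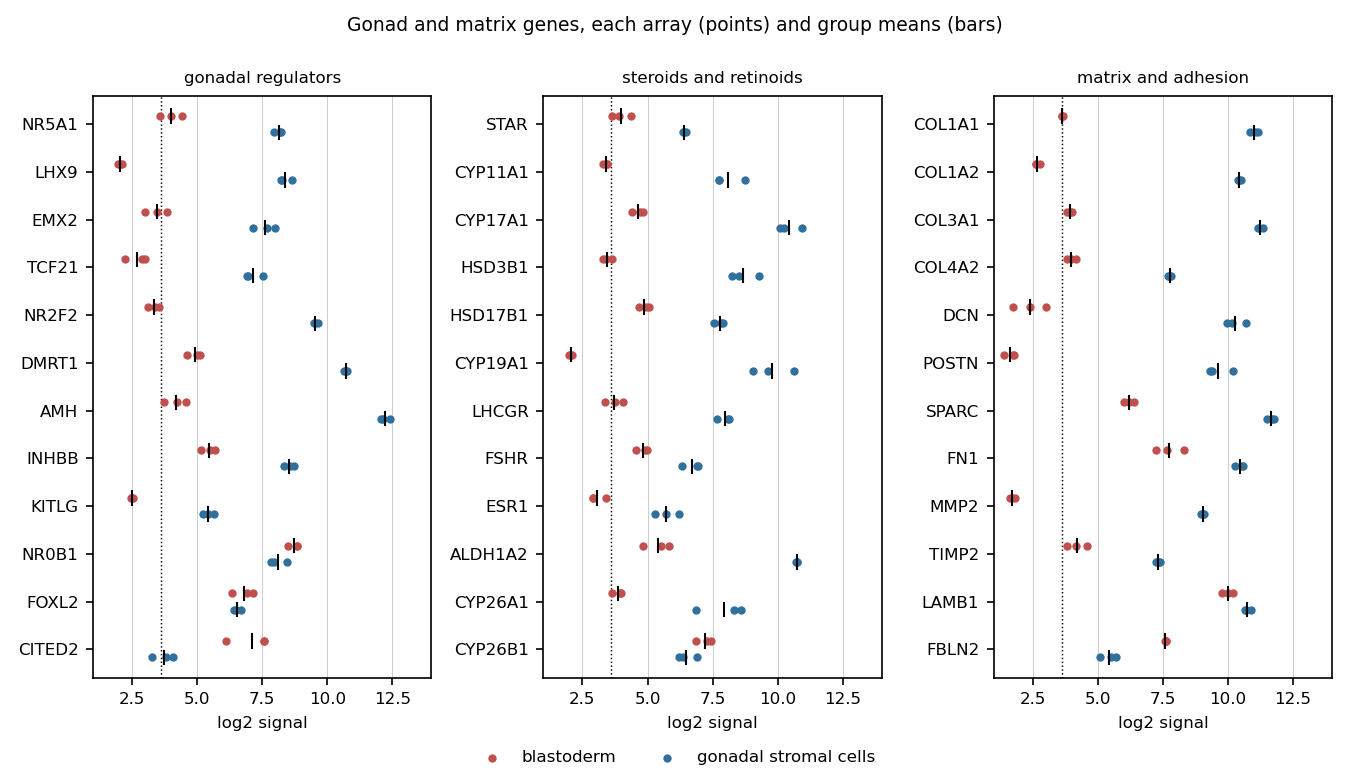
Log2 signal of each blastoderm array (red) and each gonadal stromal cell array (blue) for gonadal regulators and hormones, for steroid and retinoic acid genes, and for matrix genes; black bars are group means, and the dotted line is background at 3.61. NR0B1, FOXL2, CITED2, CYP26B1 and FBLN2 have the higher mean in blastoderm, FOXL2 not so with spike-in centring, and for every other gene shown all 3 blastoderm arrays lie below all 3 gonadal stromal cell arrays.

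Genes of the actin cytoskeleton were lower in 11 and higher in 3 of 21 measured members, with a median of -0.47. VIM, the intermediate filament of mesenchyme, read 9.39, 9.78 and 9.86 in blastoderm, against 11.78, 11.70 and 11.64 in gonadal stromal cells and was 4.08-fold lower (log2 difference -2.03, SE 0.16, adjusted p = 3.32e-08). MYLK, the kinase of myosin light chain, was 9.12-fold lower (log2 difference -3.19, SE 0.32, adjusted p = 6.31e-07), and VCL, vinculin of focal adhesions, was 5.41-fold lower (log2 difference -2.43, SE 0.18, adjusted p = 1.93e-08). ACTN1, an actin cross-linker, went the other way and was 2.60-fold higher (log2 difference 1.38, SE 0.14, adjusted p = 7.61e-07). ACTB, beta-actin, was not called (log2 difference 0.00, SE 0.06, adjusted p = 0.966); the mean over its 4 probe sets gave 0.43.

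The HOX genes that were called were lower in blastoderm, with 1 exception. Of 32 measured HOX and TALE genes, 16 were lower in blastoderm and 2 higher, with a median of -0.48, and 13 had no group mean above background. HOXA9 read 3.89, 3.79 and 3.58 in blastoderm, against 8.38, 7.99 and 8.24 in gonadal stromal cells and was 21.8-fold lower (log2 difference -4.45, SE 0.28, adjusted p = 3.33e-09). HOXC9 read 2.87, 2.89 and 2.76 in blastoderm, against 8.19, 7.70 and 7.18 in gonadal stromal cells and was at least 16.9-fold lower (adjusted p = 8.36e-08). HOXB3 was at least 5.79-fold lower (adjusted p = 1.22e-08), and HOXA6 was 18.3-fold lower (log2 difference -4.20, SE 0.37, adjusted p = 1.54e-07). HOXB1, a HOX gene of the early streak and hindbrain, was the HOX gene higher in blastoderm. It read 5.57, 5.77 and 5.76 in blastoderm, against 2.45, 2.81 and 2.61 in gonadal stromal cells, with every gonadal stromal cell array below background, and was at least 4.25-fold higher (adjusted p = 9.83e-10). Of the TALE cofactors of HOX proteins, MEIS1 was at least 5.83-fold lower (adjusted p = 7.36e-07) and PBX3 10.1-fold lower (log2 difference -3.34, SE 0.23, adjusted p = 1.05e-08), whereas PKNOX1 was at least 2.76-fold higher (adjusted p = 2.35e-05).

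Several receptors for growth and pituitary hormones were lower in blastoderm. In the list of the IGF and growth hormone axis 8 of 16 genes were lower and 3 higher, with a median of -0.67, and of its 7 ligands and receptors 4 were lower and 1 higher. PRLR, the prolactin receptor, read 2.18, 2.07 and 2.24 in blastoderm, against 7.73, 7.84 and 8.69 in gonadal stromal cells and was at least 22.3-fold lower (adjusted p = 2.29e-09). GHR, the growth hormone receptor, read 3.01, 3.64 and 3.46 in blastoderm, against 7.11, 7.26 and 8.23 in gonadal stromal cells and was at least 15.1-fold lower (adjusted p = 1.48e-06). The insulin receptor INSR was 3.53-fold lower (log2 difference -1.82, SE 0.23, adjusted p = 9.19e-06), and IGF1R was 3.29-fold lower (log2 difference -1.72, SE 0.16, adjusted p = 2.43e-07). IGF2R, which takes up IGF2 in mammals, was 2.40-fold higher (log2 difference 1.27, SE 0.23, adjusted p = 3.09e-04), and IGF2BP3, an RNA-binding protein of embryonic tissue, was 2.05-fold higher (log2 difference 1.04, SE 0.14, adjusted p = 1.18e-05).

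Guidance cues and their receptors were lower in 20 and higher in 3 of 34 measured members, with a median of -1.57. EPHA3 read 2.53, 2.65 and 2.46 in blastoderm, against 7.25, 7.08 and 7.28 in gonadal stromal cells and was at least 12.1-fold lower (adjusted p = 5.18e-10). EPHA7 was at least 11.7-fold lower (adjusted p = 2.36e-10). These are receptors for ephrins, membrane-bound cues that repel or attract cells. SEMA5A, a semaphorin, was 23.96-fold lower (log2 difference -4.58, SE 0.26, adjusted p = 8.39e-10), ROBO2, a receptor for SLIT proteins, was at least 6.65-fold lower (adjusted p = 3.15e-10), and UNC5C, a netrin receptor, was 13.5-fold lower (log2 difference -3.76, SE 0.28, adjusted p = 1.97e-08). The 3 receptors higher in blastoderm were CXCR4 and KIT, described above, and EPHB3, which was 5.03-fold higher (log2 difference 2.33, SE 0.24, adjusted p = 6.33e-07).

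Vascular genes were lower in blastoderm. Of 21 measured endothelial genes 17 were lower and 1 higher, with a median of -2.06. CDH5, vascular endothelial cadherin, read 2.26, 2.29 and 2.13 in blastoderm, against 7.66, 7.99 and 8.66 in gonadal stromal cells and was at least 22.6-fold lower (adjusted p = 1.80e-08). KDR, the main receptor of vascular endothelial growth factor, read 2.85, 2.43 and 2.55 in blastoderm, against 6.86, 6.32 and 6.20 in gonadal stromal cells and was at least 7.22-fold lower (adjusted p = 4.83e-09). TEK, the angiopoietin receptor, was at least 7.78-fold lower (adjusted p = 4.34e-08), and SOX18, a SOX factor of vessels, was at least 9.33-fold lower (adjusted p = 1.03e-05). SOX7, a relative of SOX18 and SOX17 that also acts in endoderm, was higher: it read 8.58, 8.71 and 9.24 in blastoderm, against 7.62, 7.06 and 7.08 in gonadal stromal cells and was 3.02-fold higher (log2 difference 1.59, SE 0.24, adjusted p = 4.51e-05).

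The 3 largest differences of all genes were in globins. Of 17 measured erythroid genes 14 were lower and 1 was higher, with a median of -2.93, and all 5 globins were lower. HBZ, an embryonic alpha-type globin, read 3.52, 3.13 and 2.96 in blastoderm, against 12.65, 12.60 and 11.57 in gonadal stromal cells and was at least 406-fold lower (adjusted p = 1.09e-11). HBAD read 3.61, 4.44 and 4.08 in blastoderm, against 12.80, 12.80 and 12.78 in gonadal stromal cells and was 432-fold lower (log2 difference -8.76, SE 0.21, adjusted p = 7.49e-14). In gonadal stromal cells the HBAD arrays lay within 0.022 of each other near the top of the scale, where the highest value in the table was 13.18. Globin genes resemble each other in sequence, and the HBAD probe set is one that the manufacturer marks as matching several transcripts. SLC4A1, the anion exchanger of the red cell membrane, was at least 12.8-fold lower (adjusted p = 8.68e-07). HEMGN, a nuclear factor of blood progenitors, behaved otherwise. It read 7.79, 8.84 and 9.0 in blastoderm, against 8.68, 8.61 and 8.63 in gonadal stromal cells, levels that overlapped, and was not called (log2 difference -0.10, SE 0.33, adjusted p = 0.861).

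Lists of other cell types that a gonad preparation can hold were mixed. The share lower was 23.5% for leukocyte, 26.7% for neural and 26.1% for plasma and yolk genes, close to the 24.8% over all genes. It was 47.1% for mesonephros and kidney epithelium and 11.8% for skeletal muscle. With only the 6 arrays of these groups in the fit, 7 of 17 leukocyte and 7 of 15 neural genes were lower. The plasma and yolk count stayed at 6 of 23 in that fit, and the count over all probe sets was 7650 lower instead of 6971. Of 17 measured leukocyte genes 4 were lower and 2 higher, against 14 lower and 1 higher with spike-in centring. PTPRC, the leukocyte antigen CD45, was at least 1.84-fold lower (adjusted p = 2.60e-06). CYBB went the other way, its lowest blastoderm array 1.90 log2 units above the highest gonadal stromal cell array. CD3E was higher as well, with a gap of 0.28, and turned to -0.040 with spike-in centring. Of 17 genes of the mesonephros and kidney epithelium, 8 were lower and 4 higher, and with spike-in centring 12 and 2. UMOD, which encodes uromodulin of the kidney tubule, read 3.76, 3.73 and 3.76 in blastoderm, against 6.98, 7.08 and 6.60 in gonadal stromal cells and was 8.78-fold lower (log2 difference -3.13, SE 0.28, adjusted p = 1.86e-07), while the phosphate transporter SLC34A2 went the other way, reading 7.05, 7.20 and 7.05 in blastoderm, against 2.78, 2.94 and 3.23 in gonadal stromal cells, and was at least 11.3-fold higher (adjusted p = 2.09e-09). Neural genes were lower in 4 and higher in 1 of 15 (12 and 1 with spike-in centring), and NCAM1, a neural cell adhesion molecule that other tissues also make, was at least 5.62-fold lower (adjusted p = 8.71e-08). Skeletal muscle genes, of which only 7 of 17 had a group mean above background, were higher in 6 and lower in 2, with a median of 0.27. That median turned to -0.35 with spike-in centring, where 3 were higher and 6 lower. Among them ACTC1, cardiac actin, was at least 4.17-fold higher (adjusted p = 2.43e-05) and MYL4, an embryonic and atrial myosin light chain, was 6.76-fold lower (log2 difference -2.76, SE 0.30, adjusted p = 1.40e-06). Plasma proteins and yolk receptors were higher in 3 and lower in 6 of 23 (2 and 16 with spike-in centring). APOA1, the main apolipoprotein of high-density lipoprotein, read 7.58, 7.18 and 6.77 in blastoderm, against 10.52, 10.57 and 10.33 in gonadal stromal cells and was 9.85-fold lower (log2 difference -3.30, SE 0.23, adjusted p = 9.82e-09), and VTN, vitronectin, was 3.91-fold higher (log2 difference 1.97, SE 0.23, adjusted p = 3.57e-06).

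The list of immediate early and heat shock genes had 8 of 23 members higher and 10 lower, and with spike-in centring 4 higher and 13 lower. Of 10 measured immediate early genes 6 were lower in blastoderm and 1, MYC, was higher. EGR1, a zinc finger factor that growth factors induce, read 5.09, 4.70 and 5.35 in blastoderm, against 10.65, 10.25 and 9.73 in gonadal stromal cells and was 35.8-fold lower (log2 difference -5.16, SE 0.26, adjusted p = 2.54e-10). KLF6 read 5.86, 5.55 and 5.95 in blastoderm, against 10.01, 9.95 and 9.61 in gonadal stromal cells and was 16.8-fold lower (log2 difference -4.07, SE 0.30, adjusted p = 1.93e-08). JUN was 2.73-fold lower (log2 difference -1.45, SE 0.23, adjusted p = 6.98e-05) and ATF3 3.10-fold lower (log2 difference -1.63, SE 0.35, adjusted p = 0.00123). FOS was not called and lay within background in both groups. Heat shock genes were higher in 7 and lower in 4 of 13. HSPH1, a cytosolic co-chaperone, read 8.94, 9.47 and 9.20 in blastoderm, against 5.89, 5.98 and 5.70 in gonadal stromal cells and was 10.2-fold higher (log2 difference 3.34, SE 0.30, adjusted p = 2.01e-07). BAG3, another gene of protein quality control, was 4.99-fold higher (log2 difference 2.32, SE 0.16, adjusted p = 1.14e-08). The chaperones of the endoplasmic reticulum HSPA5 (1.97-fold lower, log2 difference -0.98, SE 0.14, adjusted p = 3.26e-05) and HSP90B1 (2.87-fold lower, log2 difference -1.52, SE 0.14, adjusted p = 2.36e-07) were lower, as was the small heat shock protein HSPB1 (9.65-fold lower, log2 difference -3.27, SE 0.28, adjusted p = 1.19e-07). The groups differ in handling and sorting, and the part of either in these genes was not tested.

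**Figure D5:**
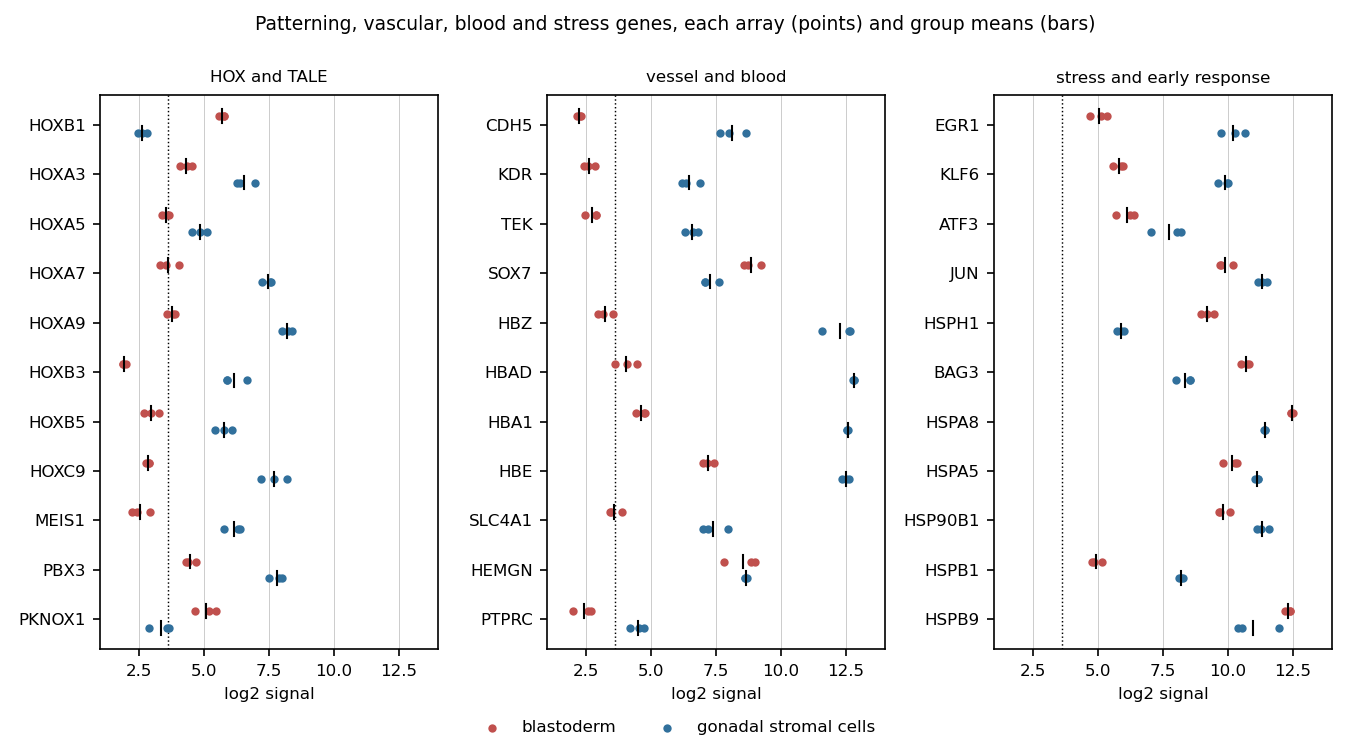
Log2 signal of each blastoderm array (red) and each gonadal stromal cell array (blue) for HOX and TALE genes, vessel and blood genes, and immediate early and heat shock genes; black bars are group means, and the dotted line is background at 3.61. HOXB1, PKNOX1, SOX7, HSPH1, BAG3, HSPA8 and HSPB9 have the higher mean in blastoderm, the groups overlap for HEMGN, and the remaining genes are lower in blastoderm.

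Respiratory chain genes were lower, and most glycolytic enzymes were not called. Subunits of the respiratory chain and ATP synthase were lower in 32 and higher in 2 of 52 measured genes, with a median of -0.51. NDUFB2, of complex I, was 3.44-fold lower (log2 difference -1.78, SE 0.15, adjusted p = 1.03e-07). UQCRC2, of complex III, was 2.13-fold lower (log2 difference -1.09, SE 0.15, adjusted p = 1.94e-05), and COX6C, of complex IV, was 2.25-fold lower (log2 difference -1.17, SE 0.09, adjusted p = 3.24e-08). COX5A, also of complex IV, was higher (2.90-fold higher, log2 difference 1.54, SE 0.28, adjusted p = 2.76e-04). Glycolysis genes were called in 6 of 24 as higher and in 2 as lower, with a median of 0.18 that turned to -0.44 with spike-in centring, where 2 were higher and 12 lower. Among the enzymes not called were ENO1 (log2 difference -0.12), TPI1 (-0.01) and LDHA (-0.05). Of the 2 ENO1 probe sets, the other was called lower. Transporters stood out: SLC16A3, which exports lactate, read 6.93, 7.46 and 7.47 in blastoderm, against 5.43, 5.39 and 4.42 in gonadal stromal cells and was 4.62-fold higher (log2 difference 2.21, SE 0.28, adjusted p = 6.38e-06), and SLC2A1, a glucose transporter, was 2.81-fold higher (log2 difference 1.49, SE 0.21, adjusted p = 2.42e-05). FBP1, an enzyme of glucose synthesis, was 6.16-fold lower (log2 difference -2.62, SE 0.29, adjusted p = 1.46e-06). GAPDH was 1.25-fold lower (log2 difference -0.32, adjusted p = 0.0166), a call lost in 4 of 24 other settings, with an adjusted p up to 0.0962.

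Cytosolic ribosomal protein genes differed little. Of 61 measured genes 21 were lower and 2 higher, with a median of -0.13, and spike-in centring made 60 lower. RPL7A, of the large subunit, was 1.48-fold lower (log2 difference -0.57, SE 0.10, adjusted p = 1.88e-04), and RPS15, of the small subunit, was 1.39-fold lower (log2 difference -0.47, SE 0.07, adjusted p = 5.38e-05). The 2 called higher, RPS12 (0.24) and RPS20 (0.19), turned to -0.38 and -0.43 with that scaling, and the calls were lost or turned in 10 and 4 of 24 other settings.

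Among the genes furthest apart, some belonged to no list. On the higher side, NOXO1, an organiser of NADPH oxidase, was at least 32.6-fold higher (adjusted p = 3.43e-11). SCNN1G, a subunit of the epithelial sodium channel, read 8.25, 8.57 and 8.63 in blastoderm, against 3.18, 3.18 and 3.30 in gonadal stromal cells and was at least 29.3-fold higher (adjusted p = 3.43e-11). FGF13 was at least 21.2-fold higher (adjusted p = 1.41e-09), the channel-like gene ANO3 was at least 24.2-fold higher (adjusted p = 1.03e-07), and the homeobox gene MSX1 was 30.9-fold higher (log2 difference 4.95, SE 0.29, adjusted p = 1.34e-09). MT3, a metallothionein that binds metal ions, was 55.3-fold higher (log2 difference 5.79, SE 0.32, adjusted p = 6.81e-10), and GNOT2 was at least 46.3-fold higher (adjusted p = 2.51e-12). On the lower side, NFIA, a nuclear factor I protein, read 2.07, 2.12 and 1.98 in blastoderm, against 8.71, 8.69 and 8.89 in gonadal stromal cells and was at least 35.6-fold lower (adjusted p = 2.92e-11). AvBD10, an avian defensin, read 2.93, 3.50 and 2.78 in blastoderm, against 9.10, 9.68 and 10.19 in gonadal stromal cells and was at least 66.1-fold lower (adjusted p = 1.31e-11). The matrix-remodelling gene MXRA5 was at least 82.4-fold lower (adjusted p = 1.84e-11), the peroxidase gene GPX8 was at least 38.6-fold lower (adjusted p = 1.20e-10), ZCCHC24 was at least 66.1-fold lower (adjusted p = 1.37e-10) and HHIPL1 was at least 26.04-fold lower (adjusted p = 8.19e-11). LOC422926 was 101-fold lower (log2 difference -6.66, SE 0.26, adjusted p = 2.14e-11), but another of its 3 probe sets was called in the opposite direction.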

How the data were processed

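RNA from pools of embryos was measured on Affymetrix chicken arrays, 1 array per sample, and samples were grouped by their titles. The values are log2 signals deposited by the authors, read as log2 from their range (1.02 to 13.18) and already alike in median between arrays. MAS5 is named per the submitters' processing notes, and the step that gave log2 values is not stated in those notes or the labels. The number of arrays limits the precision, and no interval for a single array can be given.

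Control probe sets (96) and viral and reporter probe sets (746) were left out. Of the 37693 tested, 27166 had 1 gene symbol in GEO's platform annotation, 177 several and 10350 none. Symbols of 27159 were also in RefSeq, and 15 list symbols were matched through an older symbol. For 10 further older symbols the match was not used because it led to a different gene, which was decided on seeing the annotation. Of the multi-probe genes (7334), 230 had probe sets called in opposite directions.

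The fit used limma 3.58.1 under R 4.3.3 (lmFit, eBayes with trend) over all 12 arrays, with 8 residual degrees of freedom, two-sided, blastoderm minus gonadal stromal cells, with Benjamini-Hochberg adjustment over all 37693 probe sets. Every adjusted p is from this fit unless another setting is named. The 26 gene lists (760 of 914 symbols matched) were counted, not tested. Named genes are the 20 called genes with the largest difference in each direction that have 1 symbol, no overlap of arrays and a higher group above background, up to 5 called members per list and direction, and a set always given (POU5F3, NANOG, SOX2, SOX3, LIN28A, CDH1, EPCAM, DAZL, DDX4, MYC, MYCN, NR5A1, LHX9, GATA4, WT1, AMH, COL1A1, COL1A2, DNMT3B, GAPDH and ACTB). Another 66 genes, named for their role, were chosen after their values were seen. The comparison, lists and genes were chosen with earlier results of these data known.

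Control measures were compared by exact two-sided permutation tests over 5 measures, with an adjusted p of 0.125 for each except the poly-A spike-ins (1.0). Replicate numbers were not used to pair samples: deviations of same-numbered arrays correlated at 0.01, 0.08 and 0.03. Poly-A spike-in means were, however, nearly equal by number, at 5.72, 4.63 and 4.15 in blastoderm and 5.65, 4.65 and 4.18 in gonadal stromal cells. The fit was run on simulated data for this comparison with 37693 probe sets. Of 50 probe sets changed by each fold, it recovered 2 at 1.5-fold, 28 at 2-fold, 46 at 4-fold and 49 at 8-fold. It also called 9 unchanged probe sets. In the measured data 13987 probe sets were called, far more than were changed in the simulation. The adjustment depends on that share, so these recoveries do not give the sensitivity of the reported fit. Alternatives tried were offsets of 16 and 64 on the linear scale, a filter on low values, median centring, quantile normalization, no trend, a robust prior, array weights, only the 6 arrays compared, a replicate block, each array left out, averaging the probe sets of a gene and, added after the data were seen, centring on the spike-ins and leaving out probe sets ending in _s_at or _x_at.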

Additional observations from a re-analysis of the deposited data

Results flagged for a closer look

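Among the 746 probe sets for viral and reporter sequences, which the comparison does not use, 3 exceeded background by more than 1 log2 unit on all arrays of a group. The first read 4.50, 6.23 and 6.41 in blastoderm, against 9.97, 9.47 and 9.66 in gonadal stromal cells, where its mean was 9.70. In the other groups it averaged 8.04 in primordial germ cells and 10.51 in cultured fibroblasts. The second lay within background in blastoderm, at 2.75, 2.68 and 3.45, against 5.62, 5.87 and 6.17 in gonadal stromal cells, with a mean of 5.89. The third read 4.89, 5.06 and 4.95 in blastoderm, against 4.22, 4.60 and 4.71 in gonadal stromal cells, with a mean of 4.51. What these probe sets bind in chicken RNA was not tested.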

How the results depend on the processing

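The counts of probe sets called higher (7016) and lower (6971) stayed within 1.5 times of these values except with spike-in centring and, for the higher count only, with array weights (11621 higher, 9807 lower). At 2-fold or more, an offset of 16 gave 2330 higher and 2730 lower and an offset of 64 gave 1275 and 1386, against 3608 and 4251 as reported. Spike-in centring gave 2928 higher and 21204 lower, so that 12.1% of calls were higher instead of 50.2%, and 1657 higher and 8305 lower at 2-fold or more. Within 1.5 times, median centring gave 8248 higher and 6421 lower, 56.2% of calls higher. Leaving out 1 array gave 5863 to 7478 higher and 6107 to 7388 lower, and 3478 to 3738 higher and 4126 to 4435 lower at 2-fold or more. The replicate block gave 7522 higher and 7616 lower, and 3614 and 4263 at 2-fold or more. Same-numbered arrays did not deviate together over the 22304 probe sets with a mean above background in any group, though their poly-A spike-in means were alike.

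Of 261 called genes chosen for naming, not all of which are given above, 213 kept their call in every one of the 24 other settings that held them. The filter on low values held 256 of the 261. Spike-in centring turned 6 of them: CD3E to -0.040, DES to -0.048, SOX2 to -0.16, NDUFS6 to -0.23, RPS12 to -0.38 and RPS20 to -0.43 on the log2 scale. Genes not called that it turned negative included MSH4 (-0.61), ZP3, NODAL, MESP1, SNAI2 and FOXL2. The mean over probe sets turned the called genes TF to -0.82 and RPS12 to -0.17. For genes not called it gave -0.71 for MSH4, 0.43 for ACTB and 2.76 for CDX2. The fold moved by over 1.5 times in 130 of these genes with an offset of 16, in 187 with an offset of 64, in 261 with spike-in centring, by construction, and in 72 with the mean over probe sets. List medians changed sign for 5 of 26 lists with spike-in centring and for the germ cell list with the filter on low values (-0.07) and with array weights (-0.00455). Causes were not tested. Where both groups lie within background, as for 3092 genes by their means, the arrays give no level, and signals near the top of the scale limit the upper end.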

Other observations

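Genes outside the lists were looked through after their values were seen, and those below were chosen for that reason. Some genes known from mesenchyme were lower in blastoderm, although SNAI2, given above, was not called. ZEB2, a repressor of epithelial genes, read 2.80, 2.69 and 2.77 in blastoderm, against 8.80, 8.68 and 9.18 in gonadal stromal cells and was at least 38.8-fold lower (adjusted p = 3.27e-12), with 2 of its 5 probe sets called. ZEB1, its relative, read 2.83, 2.69 and 3.02 in blastoderm, against 7.26, 7.35 and 7.63 in gonadal stromal cells and was at least 13.96-fold lower (adjusted p = 1.02e-10), with 2 of its 4 probe sets called. The cadherins of mesenchyme were lower as well: CDH11 read 2.18, 2.38 and 1.95 in blastoderm, against 8.42, 8.39 and 8.85 in gonadal stromal cells and was at least 30.8-fold lower (adjusted p = 6.19e-11), and CDH2, neural cadherin, read 5.46, 5.26 and 5.87 in blastoderm, against 10.69, 10.83 and 10.80 in gonadal stromal cells and was 37.9-fold lower (log2 difference -5.24, SE 0.25, adjusted p = 1.28e-10). TWIST2, a mesenchymal factor, was at least 2.72-fold lower (adjusted p = 1.16e-06), and NFIB, a nuclear factor I protein, was at least 17.6-fold lower (adjusted p = 9.44e-09) with all 4 probe sets called.

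On the other side, DLL1, a Notch ligand, read 8.76, 8.95 and 9.17 in blastoderm, against 4.46, 4.47 and 4.80 in gonadal stromal cells and was 20.9-fold higher (log2 difference 4.39, SE 0.24, adjusted p = 8.42e-10). DKK4, a secreted Wnt inhibitor, read 8.97, 9.64 and 9.72 in blastoderm, against 5.44, 4.90 and 5.54 in gonadal stromal cells and was 17.7-fold higher (log2 difference 4.15, SE 0.33, adjusted p = 5.22e-08). ADMP, a BMP-type signal of the organiser, was at least 7.50-fold higher (adjusted p = 1.37e-08), and VGLL1, a co-factor of TEAD proteins, was at least 7.02-fold higher (adjusted p = 3.37e-10). BRDT, a bromodomain protein known from the testis, read 5.90, 6.07 and 6.38 in blastoderm, against 1.95, 2.01 and 2.38 in gonadal stromal cells and was at least 5.69-fold higher (adjusted p = 9.96e-11) with all 3 probe sets called. TERB1, a protein of meiotic telomeres in mouse, was at least 7.02-fold higher (adjusted p = 2.21e-05).

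HINTW, a gene of the female-specific W chromosome, read 10.05, 9.22 and 9.19 in blastoderm, against 11.08, 11.06 and 10.65 in gonadal stromal cells. The groups did not overlap, but it was not called in the fit over 12 arrays (log2 difference -1.44, SE 1.30, adjusted p = 0.431). That fit takes its spread from all 4 groups, and the SD was 4.44 in cultured fibroblasts, against 0.48 in blastoderm and 0.24 in gonadal stromal cells. The fit with only these 6 arrays gave an adjusted p of 6.06e-05. Of the 2 HINTW probe sets, the other was called lower. The gonadal samples pooled both sexes, and the sources used here do not give the sex of the embryos in the blastoderm pools.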
